A study of Mus musculus with 4 samples.

Results

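The genes described here encode the enzymes, membrane proteins and proton pump of the lysosome. They are the 37 listed lysosomal genes and the 25 genes whose symbol starts with Atp6v0 or Atp6v1, which makes 62 of the 54532 genes in the count table. The libraries labelled knockout (rhebCKO) came from 2 C57BL/6J mice in which Ucp1-Cre was combined with floxed Rheb (Rheb fl/fl), and the control libraries came from 2 control littermates of the same strain. All 4 mice were 1 month old and labelled male, and the cells of every library were labelled BMSCs. The Rheb protein is a small GTPase that switches on mTORC1, a growth-controlling kinase, at the lysosomal surface. The Cre in this cross was driven by the Ucp1 promoter, which is active in brown adipocytes, so the Rheb level in marrow cells does not check the deletion. Total RNA was made into TruSeq libraries and sequenced, and each gene was given as a read count.

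Lysosomes break down proteins, glycans, lipids and nucleic acids with hydrolases that work at acid pH. The acid is made by the V-ATPase, a rotary pump in which the V1 domain in the cytosol splits ATP and the V0 domain in the membrane carries protons. Many of these genes share a promoter element, called CLEAR, that is bound by the transcription factors TFEB, TFE3 and MITF, and mTORC1 phosphorylates TFEB and holds it in the cytosol. Macrophages and osteoclasts are rich in lysosomes.

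The libraries labelled knockout held 17476868 and 17425669 counts over all genes, and the control libraries held 18776563 and 19001878. Levels are given as CPM, counts scaled to the size of each library. Rheb had 129 and 121 CPM in the labelled knockout libraries, against 89.6 and 81.4 CPM in the control libraries. The log2 fold change of Rheb was 0.55 ± 0.19 (SE, n = 2 libraries per group), and edgeR's quasi-likelihood test gave an unadjusted p of 0.0204 and a Benjamini-Hochberg adjusted p of 1. Xist, made from the inactive X chromosome of female cells, had 1774 and 0.115 CPM in the labelled knockout libraries, against 1040 and 0.421 CPM in the control libraries. Ddx3y, a Y-linked gene, had 0 and 93.9 CPM in the labelled knockout libraries, against 0 and 102 CPM in the control libraries. Replicate 1 of both groups thus had high Xist and no Ddx3y read, which goes against the label male, and replicate 2 of both groups had the opposite pattern. Summed over 10 stromal markers, the level was 26200 and 27589 CPM in the labelled knockout libraries, against 24419 and 37985 CPM in the control libraries. Most of that sum came from Col1a1 and Col1a2. Summed over 12 macrophage markers, the level was 9251 and 11597 CPM in the labelled knockout libraries, against 11976 and 8507 CPM in the control libraries. Without Lyz2 and Cd68 it was 3320 and 4068 CPM in the labelled knockout libraries, against 3877 and 3164 CPM in the control libraries. The highest library was then rhebCKO replicate 2 in place of control replicate 1. All 12 macrophage markers were detected in libraries labelled BMSCs, with Lyz2 between 5155 and 7758 CPM and Csf1r between 590 and 817 CPM. In RNA from a mixed population, fewer cells of a type and less RNA per cell cannot be told apart.

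Promoter sequences show which of these genes carry the letters of the CLEAR element next to their start sites. RefSeq promoters (build GRCm38.p6, 250 bases before to 50 after the start) were matched by symbol for 50 of the 62 genes. Both searched motifs, CACGTG and the longer TCACGTGA that contains it, read the same on both strands. A gene was counted once if any of its promoter windows held the motif, with 32851 windows over 27025 genes, expressed here or not. CACGTG was found for 16 of the 50 genes (32%), against 2187 of all 27025 genes (8.09%). TCACGTGA, the centre of CLEAR, stood in 7 of the 50 (14%), against 304 of all 27025 (1.12%). The 10-base form, which adds a G before and a C after, stood in 0 of the 50, against 100 of all 27025 (0.37%). The 7 genes with TCACGTGA were Mcoln1, Ctsa, Ctsd, Gla, Atp6v0d1, Atp6v0e and Atp6v1a. None of the 3 regulators Tfeb, Tfe3 and Mitf held CACGTG in this window. Promoter stretches before the annotated start are printed for 5 members that held a match there. Lamp1 was the most abundant membrane protein gene, Gla held TCACGTGA at 2 places before its start, and Atp6v0b encodes a V0 subunit. Glb1 and Ctsf had the highest and the lowest fold change of the listed lysosomal genes. The stretches run 5′ to 3′ along the gene's strand, and the capitals mark CACGTG or TCACGTGA.
Lamp1, chr8:13159080-13159160, plus strand: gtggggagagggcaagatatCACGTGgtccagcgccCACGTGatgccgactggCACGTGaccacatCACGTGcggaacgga
Gla, chrX:134601173-134601253, minus strand: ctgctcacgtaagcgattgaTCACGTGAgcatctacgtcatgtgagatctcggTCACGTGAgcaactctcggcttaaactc
Glb1, chr9:114401010-114401055, plus strand: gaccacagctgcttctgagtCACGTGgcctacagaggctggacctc
Ctsf, chr19:4855066-4855111, plus strand: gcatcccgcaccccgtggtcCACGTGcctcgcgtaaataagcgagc
Atp6v0b, chr4:117887330-117887385, minus strand: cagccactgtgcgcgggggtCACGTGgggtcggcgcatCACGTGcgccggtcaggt
Lamp1 thus held CACGTG at 4 places, the first letter of each lying 61, 45, 28 and 15 bases before the start site. Gla held TCACGTGA at 2 places. Glb1 and Ctsf each held CACGTG at 1 place in the stretch shown, and neither passed the test between the groups. A match is a description of these letters and was not tested as a binding site.

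No lysosomal or V-ATPase gene differed between the labelled knockout and the control libraries past an adjusted p of 0.05. Of the 62 genes, 56 had enough reads to be tested, and 0 of them were called by edgeR's quasi-likelihood test with Benjamini-Hochberg adjustment over all genes. The background was 0% called among the 14963 genes tested, so the test called no gene anywhere, and the smallest adjusted p over all genes was 0.487. One of the 56, Glb1, had an unadjusted p under 0.05, where 278 of all genes did (1.86%). DESeq2 called 23 genes of the table (0.154%) and 0 of the 56. Without control replicate 1, edgeR called 183 genes (1.22%), among them 1 of the 56, and without control replicate 2 it called 21 genes and 0 of the 56.

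Fold changes over the members were small. The median log2 fold change was 0.06 over the 56 genes, with 38 values above 0 and 18 below, against −0.01 over all tested genes, with 7304 above and 7659 below. Of the 56, 51 lay within 0.5 of no change on the log2 scale. The standard error of a member's log2 fold change had a median of 0.25 and ran between 0.19 and 0.81. For 48 of the 56 genes the 95% interval lay within −1 to 1, so that differences past 2-fold were outside it, and for the other 8 it reached further. The 37 listed lysosomal genes had 30 values above 0 and 7 below (median 0.09), and the 19 tested V-ATPase genes had 8 above and 11 below (median −0.01). The median over the 56 genes was −0.05 without rhebCKO replicate 2 or without control replicate 2, 0.21 without rhebCKO replicate 1 and 0.24 without control replicate 1. Of the 37 listed lysosomal genes, 14 were above 0 without rhebCKO replicate 2 and 12 without control replicate 2. Of the 19 V-ATPase genes, 13 were above 0 without rhebCKO replicate 1 and 12 without control replicate 1.

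**Figure D1:**
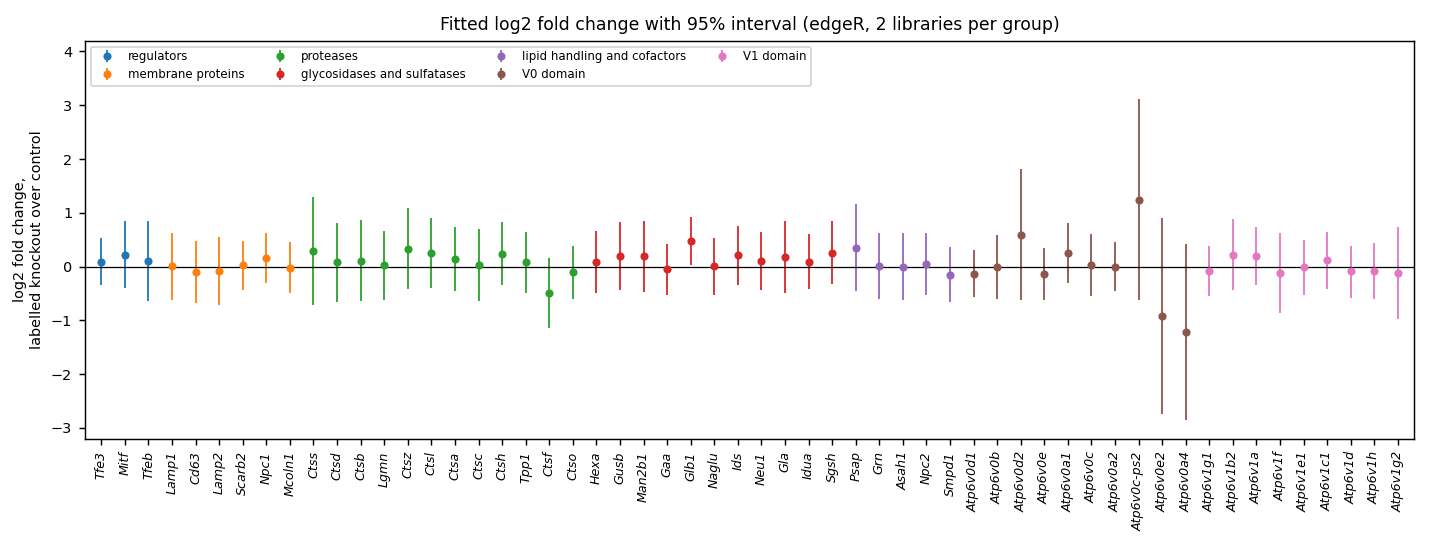
Fitted log2 fold change, labelled knockout over control, of the 56 tested genes in role order along the horizontal axis; points are estimates and bars are 95% intervals from edgeR with 2 libraries per group. The interval of Glb1 (0.03 to 0.92) is the one that leaves out 0 among the 56, and the widest belong to the low-count genes Atp6v0c-ps2, Atp6v0e2 and Atp6v0a4.

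The 3 regulators were all expressed. Tfeb had 13.9 and 25.1 CPM in the labelled knockout libraries, against 18.2 and 18.2 CPM in the control libraries. Tfe3 had 86.4 and 96.6 CPM in the labelled knockout libraries, against 88.0 and 83.7 CPM in the control libraries. Mitf, best known from melanocytes and osteoclasts, had 39.3 and 41.4 CPM in the labelled knockout libraries, against 42.2 and 26.9 CPM in the control libraries. The groups overlapped for all 3, with Tfeb lowest and highest in the pair labelled knockout and Mitf lowest in control replicate 2. Their log2 fold changes were 0.10 ± 0.32 for Tfeb, 0.09 ± 0.19 for Tfe3 and 0.22 ± 0.27 for Mitf (SE, n = 2 per group), with edgeR adjusted p = 1 for each. Per length, Tfe3 was the highest of the 3, at a mean of 9.57 CPM per kb of exon, against 6.05 for Mitf and 3.33 for Tfeb. These counts measure transcript level, and TFEB is regulated by its location in the cell, which was not measured.

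Among the membrane proteins, Lamp1 was the most abundant per length. Lamp1, a heavily glycosylated protein of the lysosomal limiting membrane, had 1048 and 967 CPM in the labelled knockout libraries, against 1159 and 848 CPM in the control libraries. Its log2 fold change was 0.01, with a 95% interval of −0.62 to 0.63. Both knockout values lay between those of the controls. Lamp2, its relative that also serves chaperone-mediated autophagy, had 628 and 458 CPM in the labelled knockout libraries, against 659 and 491 CPM in the control libraries. Its log2 fold change was −0.08, and the groups overlapped. Cd63, a tetraspanin of late endosomes, had 566 and 671 CPM in the labelled knockout libraries, against 726 and 596 CPM in the control libraries.

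The cholesterol exporter Npc1 had 161 and 182 CPM in the labelled knockout libraries, against 164 and 145 CPM in the control libraries. Scarb2, the receptor that carries glucocerebrosidase to the lysosome, had 174 and 167 CPM in the labelled knockout libraries, against 175 and 161 CPM in the control libraries. Mcoln1, the calcium-releasing channel of the lysosomal membrane, had 46.2 and 52.9 CPM in the labelled knockout libraries, against 50.2 and 50.4 CPM in the control libraries. The groups overlapped for all 6 membrane protein genes, whose log2 fold changes ran between −0.10 for Cd63 and 0.16 for Npc1, with 3 above 0 and 3 below. The number above 0 was 1 without control replicate 2 and 5 without control replicate 1.

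Proteases made up much of the lysosomal message. Summed over the 12 protease genes, the level was 9390 and 12427 CPM in the labelled knockout libraries, against 11995 and 7863 CPM in the control libraries. The spread within each group was larger than the difference between the group means, which were 10909 ± 2147 CPM in the labelled knockout libraries and 9929 ± 2922 CPM in the control libraries (SD, n = 2 each). Ctss, the cathepsin that trims the invariant chain for antigen presentation, was the highest protease per length, at rank 25 of the table, followed by Ctsd at rank 32 and Ctsb at rank 34. Ctss had 1087 and 1696 CPM in the labelled knockout libraries, against 1611 and 669 CPM in the control libraries. The control values of Ctss enclosed the first knockout value, and control replicate 2 stood lowest. Its log2 fold change was 0.29 ± 0.43 (SE, n = 2 per group; edgeR unadjusted p = 0.525, adjusted p = 1).

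Ctsb, a cysteine protease with both endopeptidase and dipeptide-releasing activity, had 3984 and 4968 CPM in the labelled knockout libraries, against 5020 and 3266 CPM in the control libraries. Ctsd, an aspartic protease, had 1483 and 2090 CPM in the labelled knockout libraries, against 2009 and 1365 CPM in the control libraries. Lgmn, the asparaginyl protease that processes cathepsins, had 685 and 851 CPM in the labelled knockout libraries, against 893 and 624 CPM in the control libraries. The order of the libraries was alike in these 3 genes, with control replicate 2 lowest and rhebCKO replicate 1 next. Their log2 fold changes were 0.11 for Ctsb, 0.08 for Ctsd and 0.02 for Lgmn. Ctsz, a carboxypeptidase, stood apart from that order, with 274 and 538 CPM in the labelled knockout libraries, against 325 and 322 CPM in the control libraries. Ctsl, another cysteine endopeptidase, had 588 and 861 CPM in the labelled knockout libraries, against 663 and 551 CPM in the control libraries. Their log2 fold changes were 0.33 ± 0.32 for Ctsz and 0.26 ± 0.28 for Ctsl (SE, n = 2 per group).

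Ctsf (chr19:4855129-4860912, mm10), a cysteine protease, was the protease with the smallest p. It had 14.4 and 15.9 CPM in the labelled knockout libraries, against 17.3 and 25.6 CPM in the control libraries. The groups did not overlap and the labelled knockout libraries were lower, as for 3 of the 56 genes and for 1684 of all genes tested (11.3%). The log2 fold change of Ctsf was −0.50 ± 0.28 (SE, n = 2 per group; edgeR unadjusted p = 0.112, adjusted p = 1). The remaining proteases overlapped between the groups. Ctsa, which also protects β-galactosidase and neuraminidase in a complex, had 414 and 536 CPM in the labelled knockout libraries, against 486 and 379 CPM in the control libraries. The log2 fold changes of Ctsa, Ctsc, Ctsh, Ctso and Tpp1 ran between −0.11 for Ctso and 0.24 for Ctsh.

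The glycosidases and sulfatases had 10 of 11 log2 fold changes above 0, with a median of 0.18, against −0.01 over all tested genes. That count was 4 of 11 without rhebCKO replicate 2 and 5 of 11 without control replicate 2, against 10 without rhebCKO replicate 1 and 9 without control replicate 1. Glb1 (chr9:114401076-114474898, mm10), the β-galactosidase lost in GM1 gangliosidosis and read out as senescence-associated β-galactosidase, had the smallest p of the 56 genes. It had 74.4 and 80.1 CPM in the labelled knockout libraries, against 57.2 and 53.9 CPM in the control libraries. Both labelled knockout values lay above both control values, which was so for 1 of the 56 genes and for 1612 of all genes tested (10.8%). Its level averaged 77.2 ± 4.05 CPM in the labelled knockout libraries and 55.5 ± 2.39 CPM in the control libraries (SD, n = 2 each). The log2 fold change was 0.48 ± 0.19 (SE), with a 95% interval of 0.03 to 0.92 and an edgeR unadjusted p of 0.038, and the adjusted p over all genes was 1. Compared within replicate numbers, the log2 ratio was 0.38 in replicate 1 and 0.57 in replicate 2.

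Hexa, the α subunit of β-hexosaminidase, was the most abundant of these enzymes per length, with 282 and 388 CPM in the labelled knockout libraries, against 349 and 282 CPM in the control libraries. Gusb, β-glucuronidase, had 207 and 281 CPM in the labelled knockout libraries, against 256 and 171 CPM in the control libraries. Man2b1, lysosomal α-mannosidase, had 346 and 486 CPM in the labelled knockout libraries, against 433 and 297 CPM in the control libraries. In each of these 3 genes rhebCKO replicate 2 was highest and the groups overlapped. Gla, the α-galactosidase of Fabry disease whose promoter is shown above, had 40.9 and 59.6 CPM in the labelled knockout libraries, against 54.1 and 34.7 CPM in the control libraries. Ids, the iduronate sulfatase, had 103 and 75.4 CPM in the labelled knockout libraries, against 87.2 and 66.6 CPM in the control libraries. The groups overlapped for both, with log2 fold changes of 0.18 for Gla and 0.21 for Ids. Sgsh, the sulfamidase of heparan sulfate breakdown, had 33.5 and 46.5 CPM in the labelled knockout libraries, against 30.6 and 36.4 CPM in the control libraries. Gaa, acid α-glucosidase, had the one value below 0 (−0.05), and Idua, Naglu and Neu1 lay between 0.01 and 0.11.

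Psap (chr10:60277627-60302597, mm10), the precursor of the saposins that present sphingolipids to their hydrolases, had the highest level of all members. It had 4400 and 6928 CPM in the labelled knockout libraries, against 5238 and 3638 CPM in the control libraries, and ranked at place 11 of the table per length. The knockout values lay on both sides of the higher control value. The log2 fold change of Psap was 0.35, with a 95% interval of −0.46 to 1.16 (edgeR unadjusted p = 0.344, adjusted p = 1). Grn, progranulin, had 624 and 749 CPM in the labelled knockout libraries, against 780 and 581 CPM in the control libraries. Asah1, acid ceramidase, had 381 and 302 CPM in the labelled knockout libraries, against 408 and 275 CPM in the control libraries. Npc2, the soluble partner of Npc1 in cholesterol transfer, had 371 and 504 CPM in the labelled knockout libraries, against 455 and 392 CPM in the control libraries. These 3 genes had log2 fold changes of 0.01 for Grn, 0.00 for Asah1 and 0.05 for Npc2, and their groups overlapped. Smpd1, acid sphingomyelinase, had 35.4 and 36.8 CPM in the labelled knockout libraries, against 36.7 and 43.3 CPM in the control libraries, a log2 fold change of −0.15.

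**Figure D2:**
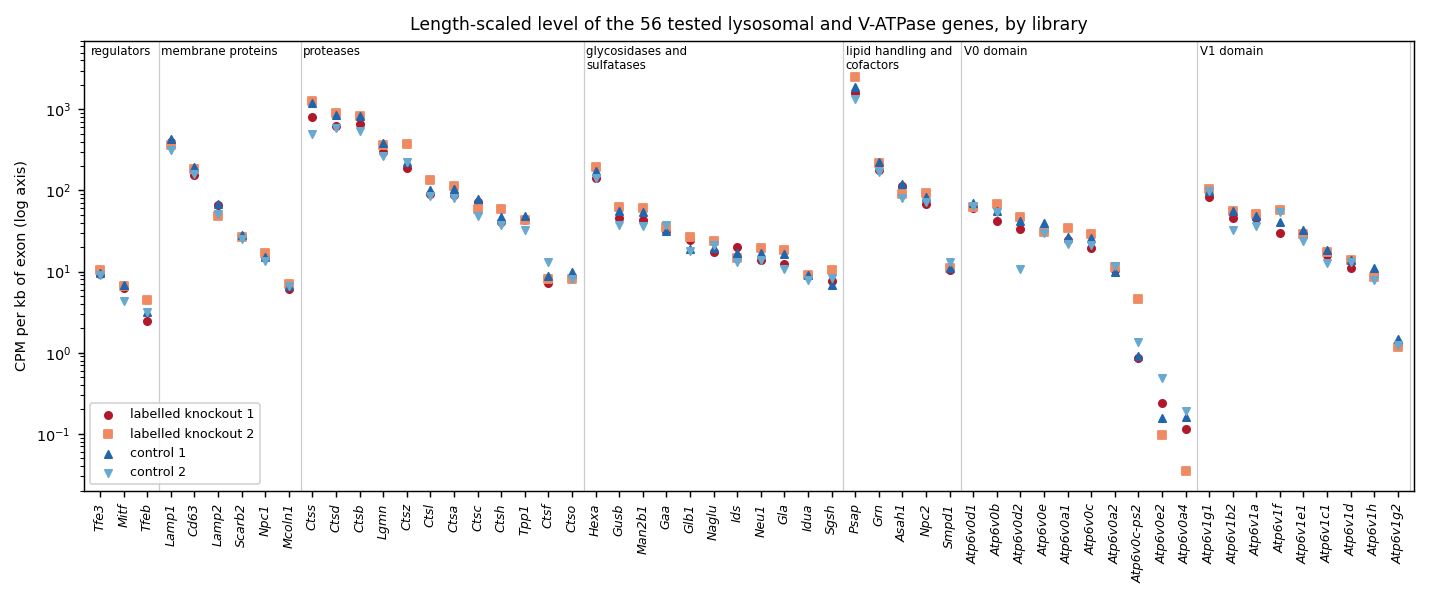
Level of each of the 56 tested genes in each library as CPM per kb of exon, on a log axis, with genes ordered by role group and then by mean level; circles and squares are labelled knockout replicates 1 and 2, triangles up and down are control replicates 1 and 2. Psap stands highest at a mean of 1841 CPM per kb, Ctss, Ctsd and Ctsb follow, and Atp6v0a4 and Atp6v0e2 lie lowest.

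For the B, C, E, G and e subunits of the V-ATPase, one gene supplied at least 98.4% of the length-scaled level in every library. Summed over the 25 V-ATPase genes, the level was 1687 and 2033 CPM in the labelled knockout libraries, against 1974 and 1526 CPM in the control libraries. An exact two-sided permutation test over the 4 libraries gave p = 0.667, where 0.33 is the smallest p that 2 libraries against 2 allow. Of the 25 genes, 4 had no count in any library, namely Atp6v0c-ps1, Atp6v1e2, Atp6v1fnb and Atp6v1g3. The limit that a count of 0 allows is 3 counts per library, which correspond to between 0.158 and 0.172 CPM. Atp6v1b1, the B subunit of renal intercalated cells, had 1 count in rhebCKO replicate 1 and none elsewhere. Atp6v1c2 had 1 and 0 counts in the labelled knockout libraries, against 0 and 4 counts in the control libraries. These 6 genes were not tested.

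In the V0 domain, the a subunit anchors the pump and decides where it goes, and the d subunit couples it to V1. Tcirg1, which encodes the a3 form found in osteoclasts and macrophages and whose symbol lies outside the rule, had the largest share of the a-subunit level per length. Its share was 58.5% and 63.2% in the labelled knockout libraries, against 59.1% and 58.7% in the control libraries. Atp6v0a1 had 29.0% and 27.6% in the labelled knockout libraries, against 29.8% and 26.7% in the control libraries. Atp6v0a2, the Golgi-associated form, had 12.4% and 9.17% in the labelled knockout libraries, against 10.9% and 14.4% in the control libraries. The order of these 3 genes was the same in all 4 libraries. Atp6v0a4, the renal form, never passed 0.231%. It had 10 and 3 counts in the labelled knockout libraries, against 15 and 18 counts in the control libraries, so its log2 fold change of −1.22 ± 0.71 (SE) rests on few reads. Atp6v0a1 itself had 160 and 223 CPM in the labelled knockout libraries, against 176 and 144 CPM in the control libraries.

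The d subunit genes set 1 library apart from the others. Atp6v0d2 (chr4:19876841-19922605, mm10), the form induced in osteoclasts and in some macrophages, had 91.0 and 127 CPM in the labelled knockout libraries, against 115 and 29.3 CPM in the control libraries. One library, control replicate 2, was far below the others. Atp6v0d2 made up 35.4% and 42.9% of the d-subunit level per length in the labelled knockout libraries, against 37.7% and 14.3% in the control libraries. Its broadly expressed counterpart Atp6v0d1 had 110 and 111 CPM in the labelled knockout libraries, against 125 and 116 CPM in the control libraries. Both knockout values of Atp6v0d1 were below both control values, with a log2 fold change of −0.13 ± 0.19 (SE, n = 2 per group; edgeR adjusted p = 1). The log2 fold change of Atp6v0d2 was 0.59 ± 0.53 (SE, n = 2 per group), with edgeR's unadjusted p at 0.296 and adjusted p at 1. Without control replicate 1, the single comparison of the labelled knockout libraries with control replicate 2 gave 1.89 and an edgeR adjusted p of 4.1e-05, and it was the one member called in any fit that left out a library. That fit assumes the lone control varies as the other group does. Summed over 8 osteoclast markers, the level was 161 and 182 CPM in the labelled knockout libraries, against 186 and 139 CPM in the control libraries, and Calcr among them had 1 count in one control library and none elsewhere. Of the 6 osteoclast markers with enough reads to be tested, 4 were lowest in control replicate 2, among them Acp5, with 24.1 and 51.3 CPM in the labelled knockout libraries, against 31.3 and 11.2 CPM in the control libraries. Ctsk, the main collagen-degrading protease of osteoclasts, was instead highest in control replicate 2, with 57.6 and 51.6 CPM in the labelled knockout libraries, against 60.0 and 74.5 CPM in the control libraries. Ocstamp was lowest in rhebCKO replicate 1. The part of these cells in the Atp6v0d2 level was not tested.

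**Figure D3:**
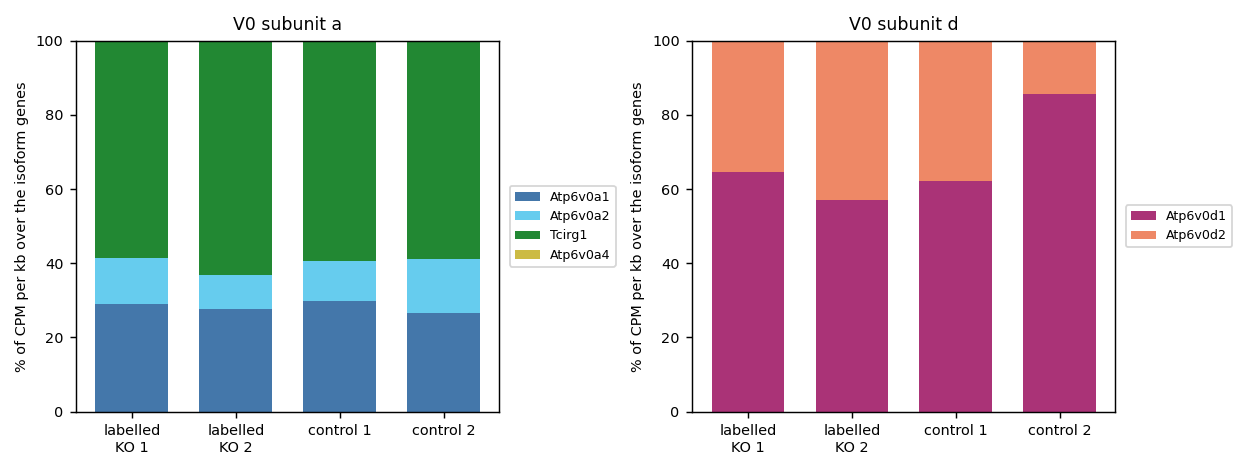
Share of each isoform gene in the length-scaled level of V0 subunits a (left panel) and d (right panel) in each library, as stacked bars that sum to 100%. The a-subunit shares are similar across libraries, while the Atp6v0d2 share is 35.4% and 42.9% in the labelled knockout libraries and 37.7% and 14.3% in the control libraries.

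The proteolipid ring and its small partners came from Atp6v0c, Atp6v0b and Atp6v0e. Atp6v0b had 86.5 and 141 CPM in the labelled knockout libraries, against 116 and 112 CPM in the control libraries. Atp6v0c had 65.6 and 97.8 CPM in the labelled knockout libraries, against 87.9 and 72.2 CPM in the control libraries. Reads of Atp6v0c and of its processed pseudogenes may have been split by the counting, so the pseudogene Atp6v0c-ps2, with 7 and 37 counts in the labelled knockout libraries, against 8 and 12 counts in the control libraries, is uncertain. Atp6v0e had 105 and 99.8 CPM in the labelled knockout libraries, against 129 and 97.0 CPM in the control libraries. The log2 fold changes were −0.14 for Atp6v0e, 0.03 for Atp6v0c and under 0.01 in size for Atp6v0b. The other e gene, Atp6v0e2, made up at most 1.61% of the e-subunit level.

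In the V1 domain, the A and B subunits form the ATP-splitting ring. Atp6v1a had 279 and 309 CPM in the labelled knockout libraries, against 295 and 221 CPM in the control libraries. Atp6v1b2, which supplied nearly all of the B subunit message, had 245 and 298 CPM in the labelled knockout libraries, against 292 and 174 CPM in the control libraries. In both ring genes rhebCKO replicate 2 was highest and control replicate 2 lowest, and the groups overlapped. Their log2 fold changes were 0.19 ± 0.23 for Atp6v1a and 0.22 ± 0.29 for Atp6v1b2 (SE, n = 2 per group).

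The stalks of V1 are built from the C, D, E, F, G and H subunits. Per length, the stalk gene Atp6v1g1 was the highest of all V-ATPase genes, at a mean of 95.5 CPM per kb and rank 406 of the table. It had 93.8 and 117 CPM in the labelled knockout libraries, against 111 and 111 CPM in the control libraries. Atp6v1f, the F subunit of the central stalk, had 31.8 and 60.9 CPM in the labelled knockout libraries, against 43.8 and 56.9 CPM in the control libraries, and was higher in replicate 2 within each group. Atp6v1e1 had 112 and 120 CPM in the labelled knockout libraries, against 135 and 98.0 CPM in the control libraries. The other stalk genes Atp6v1c1, Atp6v1d, Atp6v1g2 and Atp6v1h had log2 fold changes between −0.12 and 0.12. Over the 9 tested V1 genes, 3 values were above 0 and 6 below, with a median of −0.08, and over the 10 tested V0 genes 5 were above and 5 below, with a median of 0.00. With 1 library left out, the number above 0 ran between 2 and 7 of the V1 genes and between 2 and 6 of the V0 genes, with the V1 genes at 2 without control replicate 2 and at 7 without rhebCKO replicate 1, and the V0 genes at 2 without rhebCKO replicate 2.

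The summed level of the members did not separate the groups. The 62 genes together held 2.11% and 2.73% of reads in the labelled knockout libraries, against 2.55% and 1.80% in the control libraries. Their summed level averaged 24212 ± 4509 CPM in the labelled knockout libraries and 21771 ± 5330 CPM in the control libraries (SD, n = 2 each). The groups overlapped, and the exact two-sided permutation test gave p = 0.667. The log2 ratio of the group means was 0.15, and it was 0.09 without Psap and Ctsb, which alone held 8383 and 11896 CPM in the labelled knockout libraries, against 10258 and 6905 CPM in the control libraries. For 45 of the 56 genes (80.4%) the difference between groups was smaller than the gap between the 2 control libraries, as for 71.0% of all tested genes. A difference of group means varies less than a gap between single libraries, so this count alone does not show a lack of difference.

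The members followed a shared order of the libraries. Control replicate 2 was the lowest library for 32 of the 56 genes (57.1%), against 26.5% of all tested genes. The library highest most often was rhebCKO replicate 2, for 31 of the 56 (55.4%), against 26.4% of all tested genes. Control replicate 1 was highest for another 18. Compared within replicate 1, the labelled knockout library was below the control library for 50 of the 56 genes (89.3%), against 52.8% of all tested genes, with a median log2 ratio of −0.22. Compared within replicate 2, the labelled knockout library was above the control library for 47 of the 56 genes (83.9%), against 49.4% of all tested genes, with a median log2 ratio of 0.34. Over all tested genes, these medians were −0.02 in replicate 1 and −0.01 in replicate 2.

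The labelled knockout library was lower within replicate 1 and higher within replicate 2 for 44 of the 56 genes (78.6%), against 27.4% of all tested genes. The members Glb1, Ids and Sgsh, were higher within both replicate numbers. Lamp2, Ctsf, Smpd1, Atp6v0a4, Atp6v0d1 and Atp6v1g2 were lower within both. All 12 proteases were lower within replicate 1 (median −0.24), and 11 of them were higher within replicate 2 (median 0.55). The 11 glycosidases and sulfatases were less uniform in replicate 1, with 7 below 0, and had 10 above 0 in replicate 2. The V-ATPase genes had medians of −0.26 within replicate 1 and 0.13 within replicate 2. These counts describe 4 libraries whose members are not replicates of a condition.

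**Figure D4:**
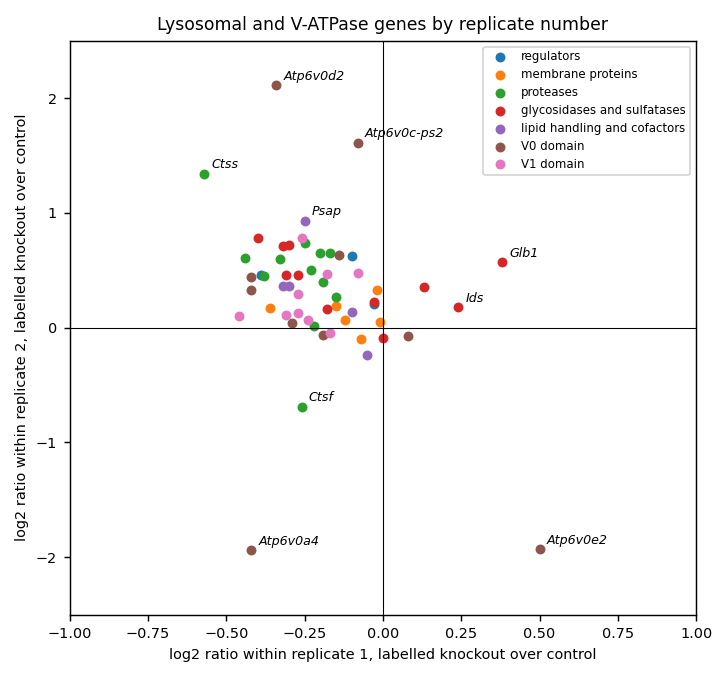
Log2 ratio of labelled knockout over control within replicate 1 (horizontal axis) and within replicate 2 (vertical axis) for the 56 tested genes, coloured by role group. The upper left part holds 44 of the 56 genes, and Glb1, Ids and Sgsh lie in the upper right.

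Most of the macrophage markers followed a similar order of libraries. Of the 12 macrophage markers, 11 were lower within replicate 1 (median log2 ratio −0.34) and all 12 were higher within replicate 2 (median 0.47). Control replicate 2 was the lowest library for 8 of the 12. For the other 4, Cd14, C1qa, C1qb and C1qc, rhebCKO replicate 1 was lowest. C1qa and C1qc ran the other way in the control pair. In control replicates 1 and 2, C1qa had 340 and 470 CPM and C1qc had 448 and 465 CPM. The median deviation of the 12 markers from the mean of the 4 libraries, on the log2 scale, was −0.14 and 0.25 in the labelled knockout libraries, against 0.20 and −0.30 in the control libraries. For the 56 lysosomal and V-ATPase genes these medians were −0.10 and 0.17 in the labelled knockout libraries, against 0.11 and −0.17 in the control libraries. The medians of the 10 stromal markers ran the other way in the control pair. They were −0.03 and −0.22 in the labelled knockout libraries, against −0.19 and 0.34 in the control libraries. Lepr, Eng and Nt5e among them did not, and were higher in control replicate 1 than in control replicate 2. Cd68, a lysosomal membrane protein, is among the macrophage markers and is not one of the 62 genes. The part of macrophage content in the lysosomal levels was not tested.

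Other cell types moved in part with the same libraries. The 7 neutrophil markers summed to 1903 and 2329 CPM in the labelled knockout libraries, against 2744 and 944 CPM in the control libraries. The 6 dendritic cell markers summed to 265 and 592 CPM in the labelled knockout libraries, against 312 and 214 CPM in the control libraries. The 6 B cell markers summed to 116 and 49.6 CPM in the labelled knockout libraries, against 664 and 238 CPM in the control libraries. Neutrophil and dendritic cell sums were thus lowest in control replicate 2, and the B cell sum was lower in both labelled knockout libraries. Among the dendritic cell markers, Zbtb46 was instead lowest in rhebCKO replicate 2 and H2-Ab1 in rhebCKO replicate 1. The B cell sum came mostly from Ighm and Igkc, with 364 and 280 CPM in control replicate 1. Cd79b and Ms4a1 overlapped between the groups. The 4 megakaryocyte markers summed to between 148 and 220 CPM, with Gp1bb at 0. The 4 endothelial markers summed to 816 and 937 CPM in the labelled knockout libraries, against 666 and 759 CPM in the control libraries. The groups did not overlap for this sum, which was higher in the labelled knockout libraries. Emcn among these markers did overlap, being highest in control replicate 1 and lowest in control replicate 2. For the endothelial and B cell sums, the exact two-sided permutation test gave the smallest p that 2 libraries against 2 allow. That p is 0.33 and cannot fall under 0.05 whatever the values, so the test cannot decide whether either sum differed. In edgeR's quasi-likelihood test, 4 of the 6 B cell markers and 0 of the 4 endothelial markers had an unadjusted p under 0.05. Over all tested genes 1.86% did, and 0 of these markers were called. The 4 brown adipocyte markers summed to at most 1.31 CPM in any library, with Cidea at 0. Ucp1 had 1 count in rhebCKO replicate 2 and none elsewhere, and most of the sum came from Adipoq. This sum was 1.31 and 1.15 CPM in the labelled knockout libraries, against 0.640 and 1.10 CPM in the control libraries. Its groups did not overlap, and the exact permutation test again gave the smallest p it allows.

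**Figure D5:**
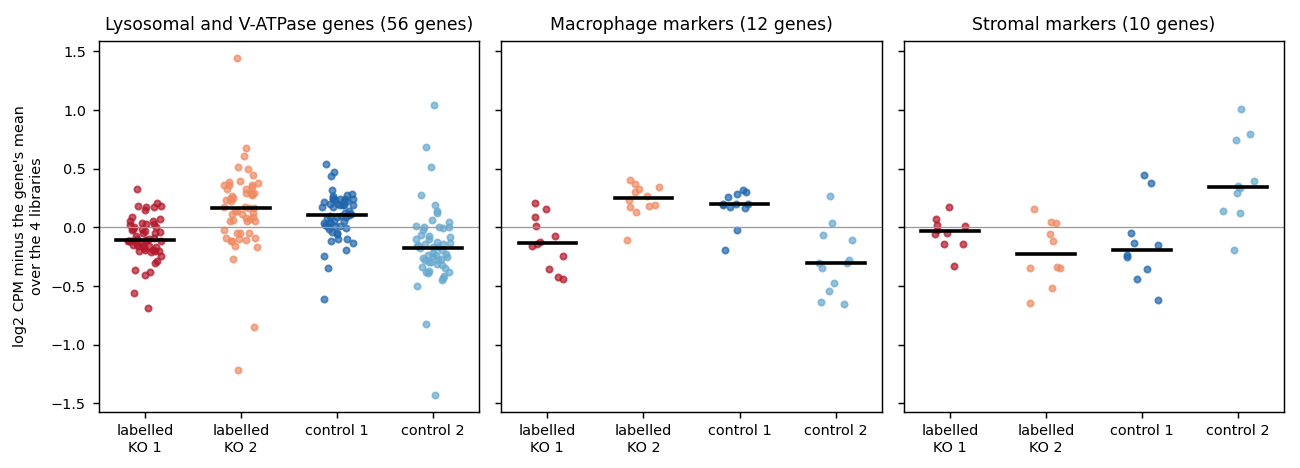
Deviation of each gene's log2 CPM from its mean over the 4 libraries, for the 56 lysosomal and V-ATPase genes, the 12 macrophage markers and the 10 stromal markers; points are genes and black bars are medians. In the left and middle panels rhebCKO replicate 2 and control replicate 1 stand above 0 and the other libraries below, and in the right panel control replicate 2 stands highest at a median of 0.34.

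Lysosomal genes outside the 62 were read from the same fit. Of 40 other lysosomal genes, 0 were called by edgeR, 25 log2 fold changes were above 0 and 15 below, and the median was 0.09. The largest in size were 0.83 ± 0.51 for Acp5 and 0.75 ± 0.45 for Gpnmb (SE, n = 2 per group). Gpnmb, a glycoprotein of macrophage lysosomes, had 1417 and 3125 CPM in the labelled knockout libraries, against 1775 and 933 CPM in the control libraries. Control replicate 2 was lowest there too, and the groups overlapped. Igf2r, the receptor that sorts enzymes tagged with mannose 6-phosphate, had 545 and 476 CPM in the labelled knockout libraries, against 397 and 449 CPM in the control libraries. The groups did not overlap for Igf2r, with a log2 fold change of 0.27 ± 0.23 (SE) and an edgeR adjusted p of 1. Laptm4a, a transmembrane protein of late endosomes and lysosomes, had 562 and 455 CPM in the labelled knockout libraries, against 635 and 566 CPM in the control libraries, a log2 fold change of −0.24 ± 0.24 (SE). Among the 40 genes, both labelled knockout values lay above both control values for 4 (10.8% of all tested genes did so) and below both for another 4 (11.3% of all tested genes).

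Of the 7 V-ATPase genes outside the symbol rule, 6 were tested and 0 were called. Tcirg1 had 221 and 348 CPM in the labelled knockout libraries, against 239 and 216 CPM in the control libraries, a log2 fold change of 0.32 ± 0.26 (SE). Atp6ap1 and Atp6ap2, the accessory subunits of the pump, had log2 fold changes of −0.01 and −0.05. Of the 13 genes of the platform that recruits mTORC1 to the lysosome, 12 were tested and 0 were called, with 5 values above 0 and 7 below and a median of −0.03. Lamtor1, which anchors the Ragulator complex in the lysosomal membrane, had 74.4 and 98.9 CPM in the labelled knockout libraries, against 84.3 and 95.2 CPM in the control libraries. Flcn, folliculin, which acts on RagC and RagD, had 46.7 and 61.2 CPM in the labelled knockout libraries, against 50.3 and 54.5 CPM in the control libraries.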

How the data were processed

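Per the file headers, the authors deposited raw read counts per gene for the 4 libraries, with exon lengths, symbols and coordinates. The submitters' processing notes name Trimmomatic, HISAT2, featureCounts and mm10, and their settings and the handling of strand and of reads that map to several places are not given in the sources used here. All 62 member IDs were found in GENCODE M21. Counts were fitted as deposited with edgeR 4.0.16 (R 4.3.3): filterByExpr (minimum count 10) kept 14963 genes, TMM scaling, quasi-likelihood F-test by group, Benjamini-Hochberg adjustment over all tested genes at 0.05. The standard error of a log2 fold change is its size over the square root of F, with 95% intervals from the t distribution. CPM used TMM-scaled totals of all counts, and level per length is CPM per kb of the deposited exon length. Within-replicate log2 ratios added 0.1 CPM. Summed levels were compared with an exact permutation test. DESeq2 1.42.0, limma-voom 3.58.1, other scalings and filters, a replicate term and leaving out each library were the alternatives. The fitting code was tested on simulated counts. With totals of 17425669 to 19001878 counts, the floor for a count of 0 covers counting error only, and the p-values and 95% intervals rest on the spread between these libraries. The replicate numbers were not treated as pairs in the main fit, since the labels tie them to no litter or batch. The Xist and Ddx3y pattern did go with the replicate number in both groups. Any difference shared by libraries of the same number therefore stays in the spread behind the main p-values and intervals. Members and lists were chosen with earlier results of these data known. Values in every library are given for the regulators and, per role group, for up to 4 members with the highest mean CPM per kb and up to 6 with the smallest unadjusted p. Figures were drawn with matplotlib 3.10.9.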

Additional observations from a re-analysis of the deposited data

Results flagged for a closer look

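The direction of the difference between labelled knockout and control depended on the replicate number. Over the 56 lysosomal and V-ATPase genes the median log2 ratio of replicate 1 was −0.22, and that of replicate 2 was 0.34. For the 19 tested V-ATPase genes these medians were −0.26 in replicate 1 and 0.13 in replicate 2. Each replicate number holds 1 library per group, so this difference was not tested. Replicate 1 of both groups had high Xist and no Ddx3y read, although all 4 mice were labelled male.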

How the results depend on the processing

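Over the whole table the call count was 0 with limma-voom, with size factors from the median of ratios, with library totals in place of TMM, with every gene that had a read, and with genes at 5 CPM or more in 2 libraries, against 23 with DESeq2 and between 0 and 183 when 1 library was left out. The count among the lysosomal and V-ATPase genes was 0 in all of these except without control replicate 1, so it ran between 0 and 1 with a library left out. Their summed level, as log2 ratio of group means, ran between −0.08 and 0.43 with a library left out, and that of the V-ATPase genes between −0.09 and 0.29. The 10-base form of the promoter element adds a G before and a C after TCACGTGA. It was found for 0 of the 50 genes, against 100 of 27025 (0.37%). A log2 fold change turned its sign for 45 of the 56 genes when at least 1 library was left out, and for 6, all within 0.01 of 0, under the other alternatives. With the replicate number as a block, edgeR called 0 genes of the table and 0 of the 56, with 382 genes at an unadjusted p under 0.05 and a member median of 0.05. Deviations of same-numbered libraries from their group means correlated at 0.25 over genes, from 2 pairs. With 2 libraries per group, a summed level could not reach p under 0.33.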
